A study of Mus musculus with 20 samples.

Results

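Phospholipases A2 cut the fatty acid from the middle position of membrane phospholipids and leave a free fatty acid, often arachidonic acid, and a lysophospholipid. Arachidonic acid is the raw material of prostaglandins and leukotrienes, and lysophospholipids are signals or are built back into membranes. The 6 genes described here are 2 secreted enzymes of the clustered kind (Pla2g5 and Pla2g2d), a more distant secreted enzyme (Pla2g12a), the cytosolic arachidonate-releasing enzyme (Pla2g4a), the calcium-independent enzyme (Pla2g6) and the lysosomal enzyme (Pla2g15). They were taken by gene name, as 8 probes, from 27376 gene names on the array. The family was chosen by the leg difference of Pla2g5 in these same mice, so the members' differences between groups are a description and are not tested.

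The muscle studied was the extensor digitorum longus (EDL) of the lower hindlimb, which is made of fast fibres, in 10 male C57Bl6 mice. At 8 weeks of age each mouse received recombinant adeno-associated virus (rAAV6) in the hindlimb muscles, in 30 µL per injection. The right leg received vectors for D832N HDAC4 and D861N HDAC5, at 2.5e+10 vector genomes of each, and the left leg of the same mouse an empty vector. These mutant class IIa histone deacetylases act as dominant negatives and are written dnHDAC4/5 here. After 4 weeks the mice were injected intraperitoneally with Scriptaid, a hydroxamate inhibitor of histone deacetylases, or with vehicle (5% DMSO in PBS). The 4 groups of 5 arrays are HS (dnHDAC4/5 and Scriptaid), ES (empty vector and Scriptaid), HV (dnHDAC4/5 and vehicle) and EV (empty vector and vehicle). HS 1 and ES 1 are the 2 legs of one mouse, as are HV 1 and EV 1, and so on through replicate 5. The promoter of the vectors, the dose of Scriptaid and the time to collection are not given in the sources used here. The titles of the ES arrays say vehicle, but their treatment entries, descriptions and animal identifiers say Scriptaid, and these were followed. The labels give leg and vector together, so a difference between right and left legs cannot be told apart from the vector.

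Each slide held 1 array of every group, always at the same place, and the group cannot be told apart from that place. The 75th percentile of the processed intensity ran from 248.4 to 608.1 over the 20 arrays, and 51.7% to 61.3% of spots were well above background in the test that the scanner software applies. The HS arrays had 657 to 1342 spots marked uneven or outlying and left out, against 375 to 685 on the other 15 arrays. They also read low in the last columns of the array and slightly high in the columns before them. Of 11 markers of muscle fibres, 10 were kept by the probe filters, among them the fast genes Myh4, Tnnt3, Tnni2 and Actn3. The other, Pvalb, passed the filter on dim probes, being well above background on 8 arrays where that filter asks for 5. It was left out by the other filter, which asks for at least 3 arrays per group once marked spots are removed. In a whole muscle, fewer cells of a type and less RNA per cell cannot be told apart.

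RefSeq lists 2 transcript starts for Pla2g5, the gene on which the results turn, and the 250 bases before each are shown because class IIa histone deacetylases act on muscle genes through MEF2 at their promoters. Both lie on the minus strand of build GRCm38.p6, at chr4:138863470-138863719 for the upstream start and chr4:138819258-138819507 for the downstream one. The sequences run 5′ to 3′ on the gene's strand. Capitals mark the copies of TGACTGTGGACCGGATG, the longest run of letters that occurs at least 4 times, without overlap between copies, in the upstream window.
Pla2g5 upstream start: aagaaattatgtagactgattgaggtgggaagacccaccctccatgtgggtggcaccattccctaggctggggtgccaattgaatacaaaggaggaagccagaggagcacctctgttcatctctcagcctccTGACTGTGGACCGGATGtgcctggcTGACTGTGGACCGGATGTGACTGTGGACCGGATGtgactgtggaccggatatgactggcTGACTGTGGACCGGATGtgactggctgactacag
Pla2g5 downstream start: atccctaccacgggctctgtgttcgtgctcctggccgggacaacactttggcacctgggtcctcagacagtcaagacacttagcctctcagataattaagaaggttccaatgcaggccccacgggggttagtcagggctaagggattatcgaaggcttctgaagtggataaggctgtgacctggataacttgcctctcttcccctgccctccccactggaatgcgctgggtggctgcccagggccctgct
The upstream window holds 4 copies of that run of 17 letters. Searched on both strands, the run was found in 1 of 32851 mouse promoter windows, the one shown. Because the run was taken from this window, that count does not say how rare such repeats are. The other windows were not searched for repeats of their own. The downstream window has no run of 8 or more letters in 4 copies. A MEF2 motif, CTANNNNTAG, and an E-box of the muscle regulators, CAGCTG, each equal to its own reverse complement and not overlapping in any member, were searched in windows of 300 bases (250 before and 50 after the start). The 6 members have 8 such windows. None of the 8 holds the MEF2 letters, which 3.69% of the 32851 windows hold. The E-box letters occur once, before Pla2g15, against 16.3% of windows. A missing match says only that these letters are not in these windows.

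Pla2g5 encodes a secreted phospholipase A2 that releases fatty acids from the outer side of cells and is known from heart muscle, macrophages and bronchial epithelium. Its probe (A_52_P94983) was well above background on every array. Levels are log2 processed intensity minus the array's 75th percentile, so 0 is a spot as bright as that percentile. In HS legs the Pla2g5 level was 2.01, 2.06, 0.54, 3.92 and 2.49, against -1.91, -1.95, -3.02, -1.36 and -1.59 in ES legs. In HV legs it was 2.08, 2.82, 0.59, 3.10 and -0.40, against 0.39, 0.27, -2.20, -1.30 and -1.70 in EV legs. Every HS leg lay above every ES leg. HV and EV overlapped, because HV 5 lay below EV 1 and EV 2.

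Within a mouse the dnHDAC4/5 leg was higher in 10 of 10 animals. The difference between legs in Scriptaid mice was log2 3.93, 4.01, 3.55, 5.28 and 4.08, a mean of 4.17 ± 0.65 (SD, n = 5), or 17.98-fold. In vehicle mice it was 1.69, 2.54, 2.79, 4.40 and 1.30, a mean of 2.55 ± 1.20 (SD, n = 5), or 5.836-fold. The vehicle mice thus spread over a wider range, and their animal 4 exceeded 4 of the 5 Scriptaid mice. Over both injections the mean was 3.36 ± 1.25 (SD, n = 10). In units of processed intensity, the HS legs ran from 725.6 to 8214 against 75.2 to 182.1 in ES legs, and the HV legs from 282.6 to 3213 against 83.1 to 657.4 in EV legs.

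**Figure D1:**
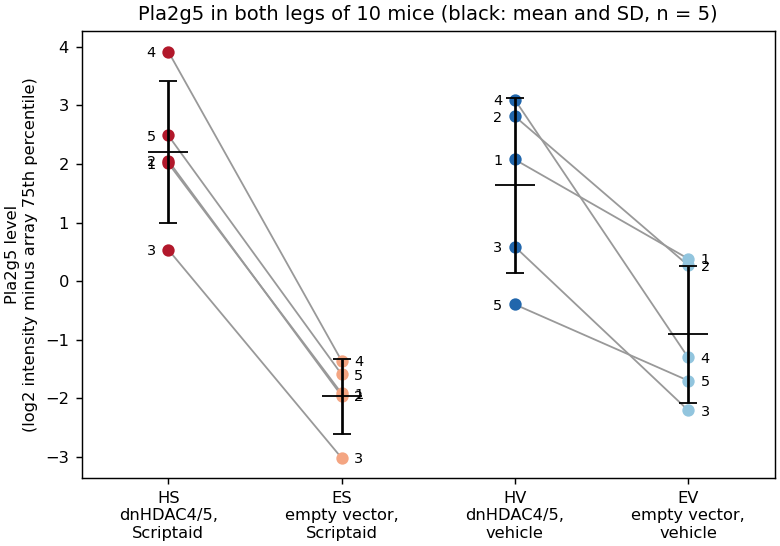
Pla2g5 level (log2 processed intensity minus the array's 75th percentile) in each leg, with lines joining the 2 legs of a mouse, numbers giving the replicate, and black bars for the mean and SD of 5 arrays. All 10 lines run downward to the right, from the dnHDAC4/5 leg to the empty-vector leg, with a mean difference of 4.17 in Scriptaid mice and 2.55 in vehicle mice.

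By group means the order of Pla2g5 levels was HS (2.20 ± 1.21, SD), HV (1.64 ± 1.50), EV (-0.91 ± 1.17) and ES (-1.97 ± 0.64), with n = 5 each. Neighbours in this order overlapped: HS with HV, HV with EV, and EV with ES. The Scriptaid comparisons are between mice. In empty-vector legs the level was lower with Scriptaid by -1.06 ± 0.69 on the log2 scale (ES minus EV, SE from limma's fit to all genes), where EV 1, EV 2 and EV 4 stood above all ES legs and EV 3 below 4 of them. In dnHDAC4/5 legs the difference was 0.57 ± 0.69 (HS minus HV). The leg difference was larger in Scriptaid mice by 1.62 ± 0.98 (SE, interaction). That SE comes from the fit of group means, which does not pair the 2 legs of a mouse. The lowest Scriptaid value, 3.55, lay below 4.40, the highest vehicle value.

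Mice differed in their Pla2g5 level in both legs together. After subtraction of the group means, the 2 legs of a mouse differed by 0.64 on average (10 pairs), different mice on the same slide by 1.06 (20 pairs), and arrays of different mice and slides by 1.31 (120 pairs). Replicate 3 gave the lowest level in HS, ES and EV legs, and replicate 4 the highest in HS, ES and HV legs. Same-numbered arrays share a slide.

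The spot of Pla2g5 lies 9 columns from the side of the array at which HS arrays read low at the outermost columns. Among the 1441 kept probes within 2 columns of it, the median HS minus ES difference was 0.16 and the 99th percentile 1.00, against 4.17 for Pla2g5. In vehicle mice the same probes had a median HV minus EV difference of 0.00425, against 2.55 for Pla2g5. Pla2g5 was chosen for its difference, so these values describe its surroundings. The part of the place on the array in its difference was not tested. In the plot of differences by column, the other member probes stay near the band of their neighbours.

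**Figure D2:**
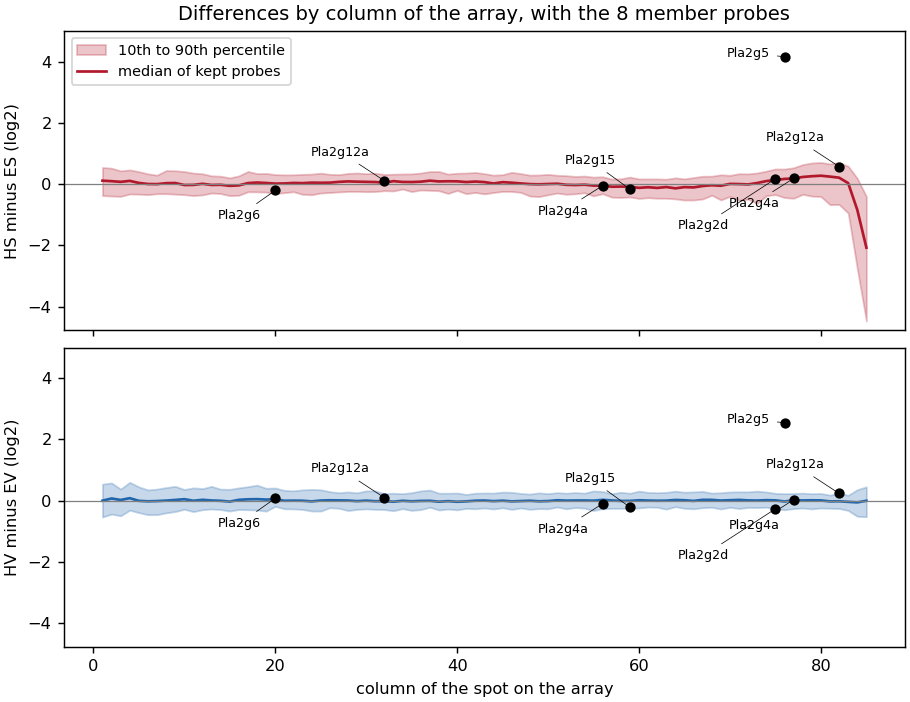
Difference between group means (log2) against the column of the spot on the array, for HS minus ES above and HV minus EV below, with the median (line) and 10th to 90th percentile (band) of kept probes in each column and the 8 member probes as black points. Pla2g5 stands at 4.17 and 2.55, away from the band in both panels, and the fall at the last columns appears in HS minus ES. The rightmost Pla2g12a point in the upper panel rests on 2 HS arrays.

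Of the 6 members, 1, Pla2g5, was called by limma (Benjamini-Hochberg adjusted p under 0.05 over 15725 genes) for the vector in Scriptaid mice (HS against ES), where 195 genes or 1.24% of all genes were called, and again 1, Pla2g5, for the vector averaged over both injections, where 172 or 1.09% were. The other comparisons called 0 members. For the vector in vehicle mice (HV against EV) limma called 0% of genes, with 730 at an unadjusted p under 0.05, and for the drug without the mutants (ES against EV) it also called 0%, with 602. For Scriptaid in dnHDAC4/5 legs (HS against HV) 1.28% of genes were called, and for the interaction 0.178%. HS and ES did not overlap for 3.45% of genes, Pla2g5 being 1 of the 542, and HV and EV did not overlap for 0.642%, with 0 members among them. Since Pla2g5 drew attention to the family in these comparisons, its calls add nothing to its values. The counts of genes called with HS arrays also fell when spots near the edge of the array were left out, to 60 for HS against ES and 80 for HS against HV. Over the 6 members the median difference was 0.04 for HS minus ES, against 0.03 over all genes, and -0.01 for HV minus EV, against -0.00188 over all genes.

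**Figure D3:**
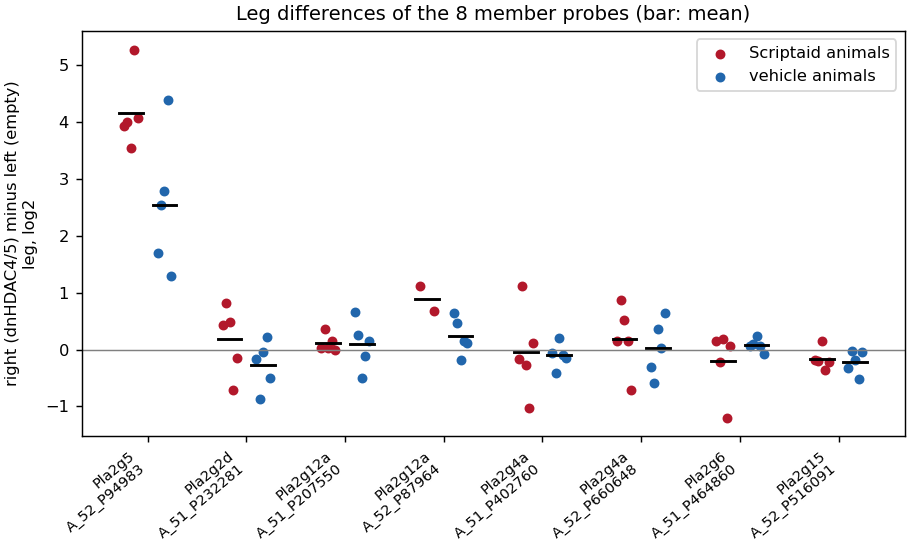
Right minus left leg difference (log2) of each of the 8 member probes, with 1 point per mouse in Scriptaid (red, left) and vehicle (blue, right) mice and a black bar at the mean. The Pla2g5 points lie between 1.30 and 5.28, and the other probes lie between -1.20 and 1.12.

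Pla2g2d, a secreted enzyme known from dendritic cells and macrophages of lymphoid tissue, was dim. Its level was -3.07, -2.41, -2.16, -4.02 and -3.88 in HS legs, against -3.51, -3.22, -2.66, -3.31 and -3.74 in ES legs. It was -3.38, -3.44, -2.86, -3.04 and -3.19 in HV legs, against -3.21, -2.57, -2.82, -3.26 and -2.70 in EV legs. Both pairs of groups overlapped, and HS legs held both the highest values and the lowest ones. HS 5 was not well above background. Its leg difference was 0.18 ± 0.60 in Scriptaid mice (higher in 3 of 5) and -0.27 ± 0.42 in vehicle mice (higher in 1 of 5).

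Pla2g5 and Pla2g2d belong to a cluster of secreted phospholipase genes on chromosome 4. In the order of protein-coding genes in RefSeq, Pla2g2c, Pla2g2f and Pla2g2d stand on one side of Pla2g5, and Gm13030 and Pla2g2e on the other. The probe of Pla2g2c was well above background on 2 of 20 arrays, and those of Pla2g2f and Pla2g2e on 0. Of the other secreted enzymes, Pla2g2a, Pla2g1b (the pancreatic enzyme) and Pla2g10 were above background on 0 arrays, Pla2g12b on 1 and Pla2g3 on 2. At Pla2g2d, the next measured neighbour in the cluster, the dnHDAC4/5 leg was the higher one in 4 of 10 mice.

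Pla2g12a, a small secreted enzyme that is widely expressed, including in muscle, was read by 2 probes in different stretches of its transcript. They are shown because they differed in Scriptaid mice. No letters are in capitals.
Pla2g12a A_51_P207550: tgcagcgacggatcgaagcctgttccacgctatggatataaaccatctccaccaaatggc
Pla2g12a A_52_P87964: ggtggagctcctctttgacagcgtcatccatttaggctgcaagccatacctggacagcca
With the first probe the Pla2g12a level was 3.19, 2.75, 3.73, 2.78 and 3.84 in HS legs, against 3.16, 2.39, 3.71, 2.63 and 3.84 in ES legs. It was 3.71, 2.74, 2.69, 2.68 and 3.46 in HV legs, against 3.04, 2.48, 3.20, 2.79 and 3.30 in EV legs. The mice differed more than their legs did: after subtraction of group means the legs of one mouse differed by 0.22 on average, different mice on the same slide by 0.34, and arrays of other mice and slides by 0.59. The leg difference was 0.11 ± 0.15 in Scriptaid mice (higher in 4 of 5) and 0.09 ± 0.44 in vehicle mice (3 of 5).

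With the second Pla2g12a probe, the spots of HS 3, HS 4 and HS 5 were marked as uneven or outlying and left out, and the probe failed the filter of at least 3 arrays per group. The 2 HS legs left had 4.56 and 3.31, against 3.44, 2.63, 3.90, 2.79 and 4.02 in ES legs. The level was 3.94, 3.01, 3.19, 3.12 and 3.69 in HV legs, against 3.31, 2.55, 3.38, 2.97 and 3.58 in EV legs. Its leg difference was 1.12 and 0.68 in the 2 Scriptaid mice measured, and 0.23 ± 0.32 in the 5 vehicle mice. With normexp background correction the mean of the same 2 Scriptaid mice was 0.06, against 0.90 here. The deposited ratio gave 0.58, but over all 5 Scriptaid mice, with the marked HS spots kept, so it cannot be set against 0.90. It lies 3 columns from the side of the array, where HS arrays were uneven, and the part of that place in the difference was not tested. In vehicle mice both probes were higher in the right legs of animals 1, 2 and 5 and lower in that of animal 3.

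Pla2g4a, the cytosolic enzyme that moves to internal membranes when calcium rises and prefers arachidonate, was low. With the brighter of its probes (A_51_P402760) the level was -2.31, -1.52, -2.14, -3.59 and -2.39 in HS legs, against -2.14, -2.63, -1.88, -2.57 and -2.51 in ES legs. It was -1.65, -1.96, -1.97, -2.86 and -2.01 in HV legs, against -1.59, -1.56, -2.18, -2.77 and -1.87 in EV legs. The groups overlapped, and the HS group had the highest and the lowest of these 20 values. Its leg difference was -0.04 ± 0.77 in Scriptaid mice (higher in 2 of 5) and -0.10 ± 0.22 in vehicle mice (1 of 5). Replicate 4 gave the lowest level in HS, HV and EV. The other Pla2g4a probe (A_52_P660648) was well above background on 3 HS, 5 ES, 5 HV and 2 EV arrays, with leg differences of 0.19 ± 0.59 in Scriptaid mice and 0.03 ± 0.49 in vehicle mice.

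**Figure D4:**
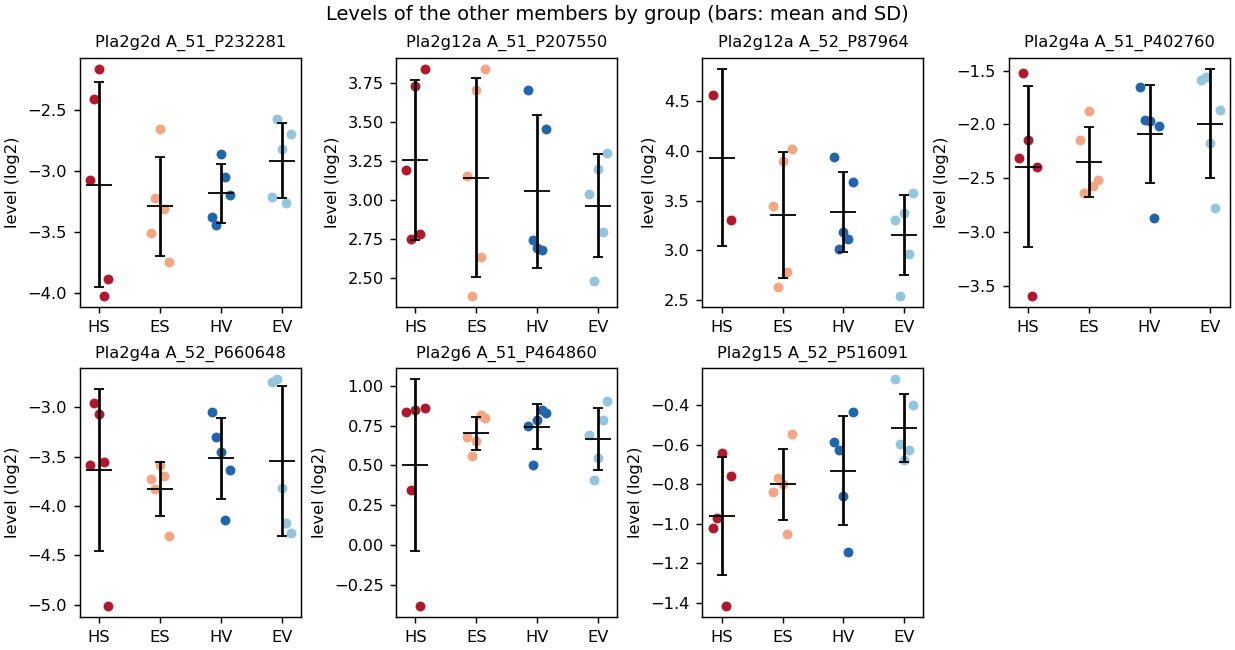
Levels (log2 processed intensity minus the array's 75th percentile) of the 7 probes of the other 5 members in HS, ES, HV and EV legs, with 1 point per array, in order of replicate from left to right, and black bars for the mean and SD. Groups overlap in each panel. The HS panel of Pla2g12a A_52_P87964 has 2 points, and each vertical axis has its own range.

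Pla2g6, the calcium-independent enzyme that remodels membranes and acts at mitochondria, varied little outside the HS group. Its level was 0.83, 0.35, 0.85, -0.38 and 0.86 in HS legs, against 0.68, 0.56, 0.66, 0.82 and 0.80 in ES legs. It was 0.75, 0.50, 0.78, 0.85 and 0.83 in HV legs, against 0.69, 0.41, 0.55, 0.79 and 0.91 in EV legs. HS 4 stood below all the other arrays, and without it HS lay in the range of the other groups but for HS 2. Its leg difference was -0.20 ± 0.58 in Scriptaid mice, where animal 4 gave -1.20 and the other 4 averaged 0.05, and 0.07 ± 0.11 in vehicle mice.

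Pla2g15, the lysosomal enzyme that also moves acyl groups to ceramide, varied little between mice. Its level was -1.02, -0.97, -0.64, -1.41 and -0.76 in HS legs, against -0.84, -0.77, -0.80, -1.05 and -0.55 in ES legs. It was -0.59, -0.63, -0.86, -1.14 and -0.44 in HV legs, against -0.27, -0.60, -0.68, -0.63 and -0.40 in EV legs. The groups overlapped, yet the dnHDAC4/5 leg had the lower value in 9 of 10 mice. The leg difference was -0.16 ± 0.19 in Scriptaid mice (lower in 4 of 5), though 0.04 on average with normexp background correction, and -0.22 ± 0.20 in vehicle mice (lower in 5 of 5). Over both injections the mean was -0.19 ± 0.19 (SD, n = 10), or 0.878-fold. Pla2g15 was also lower with Scriptaid, by -0.29 ± 0.15 in empty-vector legs and -0.23 ± 0.15 in dnHDAC4/5 legs (SE). None of these was called.

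In the Scriptaid comparisons the other members differed by less than log2 0.4. ES minus EV was 0.18 ± 0.31 for Pla2g12a, -0.37 ± 0.30 for Pla2g2d, -0.35 ± 0.32 for Pla2g4a and 0.03 ± 0.19 for Pla2g6 (SE). HS minus HV was 0.20 ± 0.31 for Pla2g12a, 0.07 ± 0.30 for Pla2g2d, -0.30 ± 0.32 for Pla2g4a and -0.24 ± 0.19 for Pla2g6. All of these groups overlapped. The 2 comparisons share no array, but they use the left and right legs of the same 10 mice and are not independent. Both compare different mice.

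The rest of the phospholipase A2 family and the genes on each side of it in the pathway were read from lists that hold 79 measured genes. limma called 0 of the 79 in each of the 6 comparisons, with 6 at an unadjusted p under 0.05 for HS against ES, 1 for HV against EV, 5 for the averaged vector, 4 for ES against EV, 4 for HS against HV and 0 for the interaction. The smallest adjusted p was 0.122, for the averaged vector. The values below are the averaged vector (dnHDAC4/5 minus empty-vector legs, log2, with limma's SE and adjusted p), for the 3 genes of smallest p in each list. Over all genes the median of that difference was 0.02, with 53.6% of genes higher.

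Among 17 measured phospholipase A2 genes other than the members, 12 had higher and 5 lower values, with a median of 0.02, and 0 were called. Pla2g7, a plasma enzyme made by macrophages, differed by 0.83 ± 0.52 (adjusted p = 0.575) and was higher in 8 of 9 mice measured, by 1.18 on average without Scriptaid animal 5, against 0.72 with it. Pafah1b1, the regulatory subunit also known as Lis1, differed by -0.16 ± 0.08 (adjusted p = 0.446), and Pafah2, an intracellular enzyme, by -0.26 ± 0.20 (adjusted p = 0.690), or by -0.14 on average without Scriptaid animal 1. Pla2r1, the receptor that binds secreted phospholipases A2, was measured on all 20 arrays and differed by 0.12 ± 0.14.

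**Figure D5:**
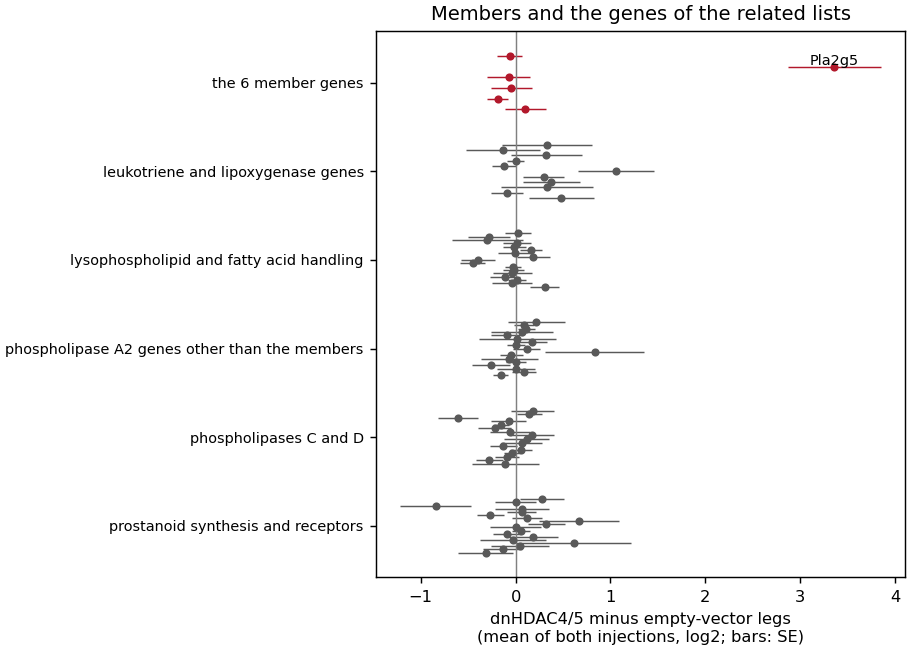
Difference between dnHDAC4/5 and empty-vector legs averaged over both injections (log2, bars for limma's SE) for the 6 member genes (red, top) and the 79 measured genes of the related lists (grey). Pla2g5 lies at 3.36, and the grey points lie between -0.84 and 1.06.

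Of 18 measured genes of prostanoid synthesis and reception, 11 had higher and 7 lower values (median 0.05), and 0 were called. The cyclooxygenases, which turn arachidonic acid into the prostaglandin precursor, gave 0.06 ± 0.15 for Ptgs1 and 0.07 ± 0.28 for Ptgs2. Ptgs2 was well above background on 8 arrays. The prostaglandin transporter Slco2a1 differed by -0.84 ± 0.37 (adjusted p = 0.357) and was lower in 9 of 10 mice, by -4.11 in Scriptaid animal 4 and by -0.48 on average in the other 9. The prostaglandin reductase Ptgr2 differed by -0.26 ± 0.14 (adjusted p = 0.480) and the prostacyclin receptor Ptgir by 0.32 ± 0.19 (adjusted p = 0.551).

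Of 11 measured leukotriene and lipoxygenase genes, 7 had higher and 4 lower values (median 0.32), and 0 were called. Cysltr1, a receptor for cysteinyl leukotrienes, differed by 1.06 ± 0.40 (adjusted p = 0.260) and was higher in 10 of 10 mice, by 0.03 to 3.32. Its probe lies at the edge of the array. Alox12, a lipoxygenase, differed by 0.48 ± 0.34 (adjusted p = 0.649). Alox5ap, which hands arachidonic acid to 5-lipoxygenase, differed by 0.30 ± 0.22 (adjusted p = 0.663). Scriptaid animal 2 was the highest for both, and without it Alox12 averaged 0.24 and Alox5ap 0.12.

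Of 17 measured genes that handle lysophospholipids and fatty acids, 6 had higher and 11 lower values (median -0.02), and 0 were called. Gpcpd1, which splits glycerophosphocholine, the end product of phosphatidylcholine breakdown, differed by -0.45 ± 0.14 (adjusted p = 0.122) and was lower in 9 of 9 mice measured. It was called with the mean of all its probes (-0.48, adjusted p = 0.0197 from limma). The plasma acyltransferase Lcat differed by -0.40 ± 0.18 (adjusted p = 0.384), or by -0.26 on average without Scriptaid animal 3. Lcat was dim, being well above background on 10 arrays. Acsl1, which activates long-chain fatty acids in muscle, differed by 0.31 ± 0.15 (adjusted p = 0.446). Of 16 phospholipases C and D, 6 had higher and 10 lower values (median -0.07), and 0 were called. Pld2, a phospholipase D read by an edge probe, differed by -0.61 ± 0.21 (adjusted p = 0.200), Plcb3 by -0.28 ± 0.14 (-0.13 on average without Scriptaid animal 5) and Plcl2, a catalytically inactive relative, by -0.15 ± 0.08.

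Markers of other cell types that express phospholipases A2 were summed over the genes of each list measured on all 20 arrays off the edge. All 11 macrophage markers on the array passed the filter on dim probes, and the sum over 8 of them ran from 4.22 to 13.8 in HS legs against 4.50 to 10.9 in ES legs, and from 5.36 to 11.2 in HV legs against 4.16 to 11.0 in EV legs. The sum was higher in the right leg of 3 of 5 Scriptaid mice (log2 0.33 ± 0.85) and 3 of 5 vehicle mice (0.11 ± 0.41). By animal it was -0.18, 1.61, 0.17, -0.61 and 0.66 in Scriptaid mice and 0.10, -0.18, 0.63, 0.37 and -0.37 in vehicle mice, higher in some right legs and lower in others. Gene by gene, 10 of the 11 macrophage markers had higher values in HS than in ES (median 0.30, against 0.03 over all genes) and 9 of 11 in HV than in EV (median 0.17, against -0.00188), with 0 called and 3 and 0 at an unadjusted p under 0.05. The 3 markers left out of the sum were Lyz2, C1qc and Cd68. Lyz2, the macrophage lysozyme, differed by 1.02 ± 0.33 (HS minus ES, limma's adjusted p = 0.187), and C1qc, a complement subunit, by 0.81 ± 0.41 (adjusted p = 0.463). Cd68, read by an edge probe, went the other way, by -1.47 ± 0.47 (adjusted p = 0.164). It was 1 of the 3 at an unadjusted p under 0.05.

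The sum of the 8 adipocyte markers was higher in the right legs of 5 of 5 Scriptaid mice (log2 0.67 ± 0.60, from 0.23 to 1.72) and of 3 of 5 vehicle mice (0.02 ± 0.43). It ran from 110.2 to 267.2 in HS legs against 72.1 to 192.5 in ES legs, and from 94.7 to 142.8 in HV legs against 86.1 to 165.4 in EV legs. By animal the difference was 0.49, 0.47, 0.43, 0.23 and 1.72 in Scriptaid mice and -0.56, 0.18, 0.56, 0.14 and -0.24 in vehicle mice. Gene by gene, 7 of the 8 adipocyte markers had higher values in HS than in ES (median 1.94, against 0.03 over all genes). In HV against EV 1 of the 8 did (median -0.29, against -0.00188). In both comparisons 0 were called and 0 had an unadjusted p under 0.05. The sum of 5 endothelial markers was lower in the right legs of 5 of 5 Scriptaid mice (-0.18 ± 0.10) and 4 of 5 vehicle mice (-0.05 ± 0.06). Of single endothelial markers, 7 of 7 had lower values in HS than in ES (median -0.21) and 4 of 7 in HV than in EV (median -0.04). In HS against ES 1 of the 7 was called, Cdh5, at -3.97, where 1.24% of all genes were called. Its probe lies at the edge of the array. In HV against EV 0 were called. For fibroblasts, 7 of 7 markers passed the filter, and the sum over 6 was higher in 2 of 5 Scriptaid (0.27 ± 1.11) and 4 of 5 vehicle right legs (0.20 ± 0.49). Taken singly, 7 of 7 fibroblast markers had higher values in HS than in ES (median 0.32, against 0.03 over all genes). In HV against EV 4 of 7 did (median 0.01, against -0.00188), and 0 were called in either comparison. For mast cells 6 of 7 passed, and the sum over 5 was higher in 3 of 5 in each injection. The part of the macrophage, adipocyte, endothelial and fibroblast markers in the Pla2g5 difference was not tested.

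The genes whose pattern over the 20 arrays was most like that of Pla2g5 were found by the root mean square (RMS) difference of log2 values centred on each gene's mean, over 11945 genes whose median was 2.04. They were Igfn1, an immunoglobulin-like protein of the muscle Z-disc (0.932), the carboxylesterase Ces2c (1.09), Plekhh1 (1.12), Ttc9 (1.18), the tetraspanin Cd82 (1.20) and the heat shock protein Hspa1a (1.21). The leg difference of Igfn1 was 2.98 ± 1.19 in Scriptaid mice and 2.90 ± 1.57 in vehicle mice, and it was higher in 10 of 10. That of Ces2c was 3.08 ± 0.84 and higher in 5 of 5 Scriptaid mice, and 1.68 ± 1.42 and higher in 4 of 5 vehicle mice. Cd82 and Hspa1a were likewise higher in 5 of 5 mice of each injection, by 1.63 ± 0.88 and 2.97 ± 1.23 in Scriptaid mice. Hspa1a cannot be told apart from its near-identical copy Hspa1b by hybridization, nor Ces2c with certainty from other Ces2 genes. When each gene was also divided by its SD, the 6 nearest were Scx, Spns3, Lpin2, Cd82, Sdf2l1 and Myc, with Cd82 in both sets. The likeness is a description over arrays that share mice and slides.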

How the data were processed

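Gene expression was measured with 1-colour arrays (Cy3, from 100 ng of RNA) in 20 EDL muscles. Per the file headers, Agilent Feature Extraction 9.5.1.1 made the deposited processed intensity of each spot, with background subtracted and a spatial trend removed. The deposited matrix gives a ratio for part of the probes. Set against the scanner files, it is that intensity divided by 1 constant per array, and it served as an alternative. The genome build behind the probes is not given in the sources used here.

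Here the intensity was put on the log2 scale after deposit, the array's 75th percentile over the 43379 non-control spots was subtracted, and 12539 spots marked non-uniform or population outliers were left out. A probe was kept if well above background on at least 5 arrays, with at least 3 arrays left per group (23609 of 41174 probes, 7 of the 8 member probes). Each of 15725 genes was represented by its brightest probe on average. The means of the 4 groups were fitted in R 4.3.3 with limma 3.58.1 and the package data.table (1.17.8), two-sided, with Benjamini-Hochberg adjustment, and tested on simulated data. Every adjusted p is limma's. The fit has no term for the animal, so its SEs do not use the pairing of legs. The number of arrays limits the precision. The named genes were the 6 members with all probes, called genes of each list or else the 3 of smallest p for the averaged vector, and the 6 nearest in pattern to Pla2g5. The members and lists were chosen with earlier results of these data known. The result of 1 further list of cell type markers is not reported here.

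The animal identifiers pair the legs. After subtraction of group means, the legs of one mouse correlated at 0.0321 to 0.412 across genes, which are not independent replicates. Arrays of different mice with the same vector on the same slide correlated at 0.0502 to 0.389, a similar range. Alternatives were normexp background correction (offset 50), quantile normalization, flagged spots kept, spots in the outer 2.5% or 5% of rows and columns left out, animal or slide as a block, other filters on dim probes, the mean of a gene's probes, the deposited ratio, and each array left out in turn. Sequences are RefSeq's, build GRCm38.p6, matched by symbol for 6 of 6 members, and the Pla2g12a probes are as given in the scanner files.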

Additional observations from a re-analysis of the deposited data

Results flagged for a closer look

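Of 87 sets of 4 to 10 values searched for a lone value, 4 had one, each among differences between the dnHDAC4/5 leg and the empty-vector leg of a mouse (log2, dnHDAC4/5 minus empty vector), and chance marks about 1 such set in 20. Cysltr1, whose probe lies at the edge of the array, was higher by 3.32 in Scriptaid animal 2, against 0.03 to 1.74 in the other mice. Lcat, well above background on 10 arrays, was lower in Scriptaid animal 3, at -1.64, against -0.70 to 0.14 in the others. Pla2g7 stood at -2.89 in Scriptaid animal 5, against 0.59 to 2.55 in the other mice measured. The summed adipocyte markers were higher by 1.72 in Scriptaid animal 5, against 0.23 to 0.49 in the other Scriptaid mice. The leg difference of the endothelial cadherin Cdh5, which was left out of the endothelial sum because its probe lies at the edge of the array, was lower in Scriptaid than in vehicle mice by limma's test of the interaction (-4.01 on the log2 scale).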

How the results depend on the processing

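Pla2g5 was higher in right legs in 5 of 5 mice of each injection under every alternative that measured them all. Its mean leg difference ran from 3.25 (normexp background correction) to 4.32 in Scriptaid mice and from 2.04 to 2.86 in vehicle mice. The counts over all genes moved more. With normexp correction the interaction called 83 genes. Without spots in the outer 2.5% of rows and columns, limma called 60 genes for HS against ES, 88 for the averaged vector, 80 for HS against HV and 0 for the interaction (493 at an unadjusted p under 0.05). Without the outer 5%, a setting chosen after seeing the data, these were 30, 79, 38 and 0 (389 unadjusted). With animal as a block, the pairing of legs, the averaged vector called 267 genes, and with slide as a block the counts were 359 for HS against ES, 405 averaged and 376 for HS against HV. With no filter on dim probes they were 322, 72 averaged and 1 for ES against EV. Of the pathway lists, 2 genes (Ptger1, well above background on 0 arrays, and Plch1) were then called for HS against ES and 1 (Ptger1) for HS against HV. With the mean of all probes 1 (Gpcpd1) was called for the averaged vector. Leaving out 1 array at a time, HS against ES called 116 (without ES 1) to 348 (without HS 2), with 117 without ES 2 and 119 without ES 4 or HS 5. The averaged vector called 80 (without HV 1) to 324 (without HV 5), with 278 without HS 2 and 81 to 102 without EV 2, EV 4, HV 2, HV 4, ES 1, ES 2, ES 4 or HS 5. HS against HV called 133 (without HV 2) to 436 (without HS 2), the interaction 21 to 52 (without HS 2), ES against EV 0 to 1 (without EV 1 or EV 3) and HV against EV 0 to 3 (without HV 5). The pathway lists had 0 calls in HS against HV but for 1 (Acsl1) without HS 2. The blocks changed no other member's call. The cause of these shifts was not tested. The likeness ranking changed with scaling, as given above. Dim probes (Pla2g2d, and A_52_P660648 of Pla2g4a) and the HS edge limit what can be read. Some leg differences of the other members changed sign. With normexp correction Pla2g15 in Scriptaid mice was 0.04, against -0.16, Pla2g4a in Scriptaid mice (A_51_P402760) 0.14, against -0.04, and in vehicle mice (A_52_P660648) -0.68, against 0.03. The first Pla2g12a probe in vehicle mice was -0.05 without animal 1, against 0.09, and Pla2g6 in Scriptaid mice 0.05 without animal 4, against -0.20.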
